A study of Rattus norvegicus with 3 samples.

Results

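Myelin genes were read on 3 rat expression arrays: Mbp, Cnp and Mag, used by oligodendrocytes and Schwann cells alike, Mobp, known from the myelin of oligodendrocytes, and Pmp22, known from the myelin of Schwann cells. The members were taken as every probe set whose platform annotation names 1 of these 5 genes and no other gene, which gave 11 of the 8740 probe sets that were not array controls. The annotation gave 4 probe sets for Mobp, 3 for Mag, 2 for Pmp22 and 1 each for Cnp and Mbp. All 5 genes had a probe set, and their gene IDs carry the same symbols in RefSeq.

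The labels name rat, total RNA and pineal gland with adrenal medulla as the source of all 3 samples, and place them in a time course at 0.0 h, 0.1 h and 1.0 h. They do not give the treatment, the strain, the age, the number of animals or which of these tissues each array holds. There was a single array for each time label, so nothing below was checked against a replicate or tested between time labels, and having so few arrays limits the precision of every value.

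Myelin is the lipid-rich sheath that glia wrap around axons, made by oligodendrocytes in the central nervous system and by Schwann cells in peripheral nerves. Most myelin genes are used by both glia. Mobp is known from central myelin only, and Pmp22 is a protein of compact peripheral myelin. Pmp22 is also made by fibroblasts and other cells outside nerves. The pineal gland receives sympathetic nerve fibres, and the adrenal medulla is entered by preganglionic ones, so Schwann cells are known in both tissues.

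Values are scaled intensities, a linear brightness per probe set, after each array was shifted by a small common factor of 0.008, 0.042 or -0.05 on the log2 scale (0.0 h, 0.1 h and 1.0 h). A reading counted as measured only above a floor of 262.9, the 40th percentile of all values. Above it lay 58.8% to 60.9% of the probe sets of an array, and 52.4% of probe sets were above it on all 3 arrays. The 3' to 5' intensity ratio of the beta-actin control, a sign of RNA integrity, was 10.4, 17.8 and 44.4 at 0.0 h, 0.1 h and 1.0 h, and that of GAPDH was 15.3, 18.6 and 14.1. Their part in the differences below was not tested. Because probe sets differ in how well they bind, brightness is compared between arrays for 1 probe set and not between genes as an amount of transcript. In whole tissue, fewer cells of a type and less RNA per cell cannot be told apart.

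Of the 11 myelin probe sets, 5 were above the floor on all 3 arrays and 6 on none, where 52.4% and 31.6% of all probe sets were. None crossed the floor between arrays, where 16.0% of all probe sets did. This depended on the floor: 7, 8 and 8 of the 11 were above one at the 20th percentile on the 0.0 h, 0.1 h and 1.0 h arrays, and 3, 4 and 3 above one at the 60th. The measured ones were the single probe set of Cnp, both of Pmp22, and 2 of the 3 of Mag. Mbp and Mobp had none.

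**Figure D1:**
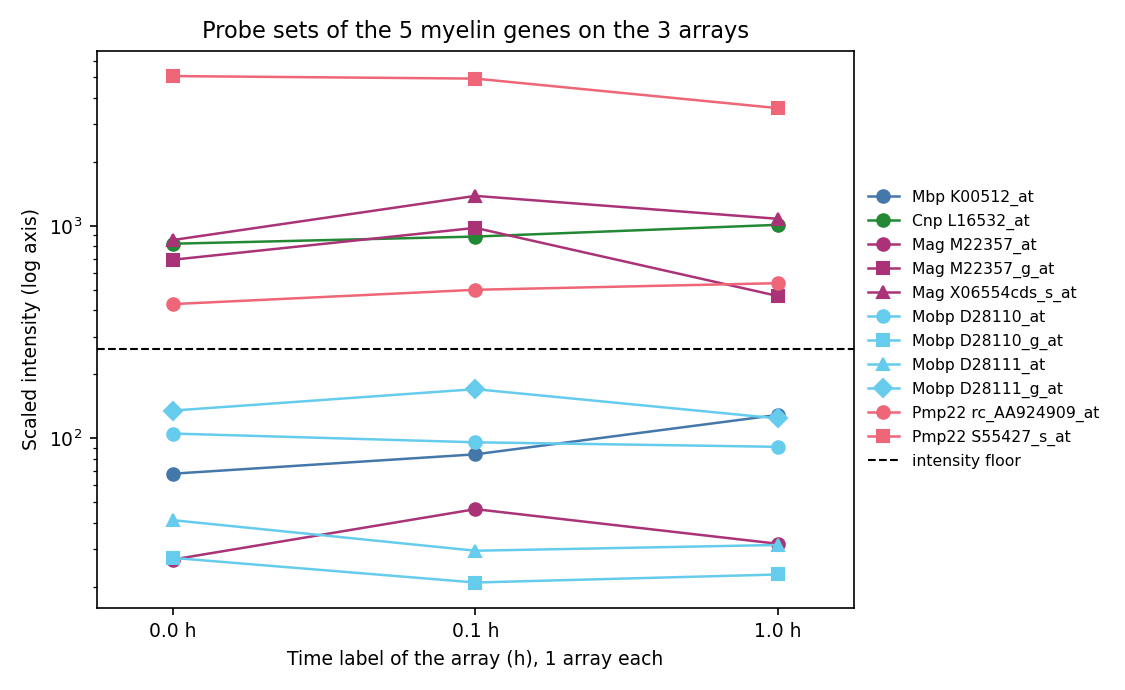
Scaled intensity (log axis) of each of the 11 probe sets on the 3 arrays, with 1 line per probe set, 1 colour per gene, and the floor of 262.9 dashed; the lines join single arrays and carry no error. The 4 Mobp probe sets, the Mbp probe set and 1 Mag probe set stay below the floor throughout, and Pmp22 S55427_s_at lies highest, between 3580 and 5069.

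Mobp encodes myelin-associated oligodendrocyte basic protein, a small basic protein between the membrane layers of central myelin. Its probe sets come from a pair of deposited cDNA sequences. D28111_g_at gave 134.8, 170.1 and 123.8 at 0.0 h, 0.1 h and 1.0 h, and D28110_at gave 105.1, 95.6 and 91.0. The other two, D28110_g_at and D28111_at, lay between 20.9 and 41.1. The central myelin gene of the set was therefore not measured above the floor on any array, and its values have no order between arrays. The highest of them stood at the 31.4th percentile of its array. D28111_g_at and D28110_at were above the lower floor, at the 20th percentile, on all 3 arrays.

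Mbp encodes myelin basic protein, which holds the inner faces of the membrane layers together in central and peripheral myelin alike. Its only probe set, K00512_at, gave 68.0, 83.9 and 128.7. All 3 were below the floor, at the 18.5th, 20.3rd and 25.9th percentiles of their arrays, so these values too have no order. A reading below the floor on 1 probe set is not evidence that the transcript was missing.

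Cnp encodes the 2',3'-cyclic nucleotide phosphodiesterase of non-compacted myelin and is made by both kinds of myelinating glia. Probe set L16532_at gave 823.0, 889.6 and 1010.4 at 0.0 h, 0.1 h and 1.0 h. The log2 difference was 0.11 between 0.1 h and 0.0 h, 0.30 between 1.0 h and 0.0 h and 0.18 between 1.0 h and 0.1 h. When the arrays were scaled on spike-in controls these became -0.16, 0.49 and 0.66, so how steady Cnp was depended on the scaling.

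Mag encodes myelin-associated glycoprotein, an adhesion protein on the face of the myelin that touches the axon, in oligodendrocytes and Schwann cells. Probe set X06554cds_s_at gave 856.5, 1382.9 and 1078.2, and M22357_g_at gave 691.9, 977.7 and 466.7. Both were highest at 0.1 h, by 1.61-fold and 1.41-fold over 0.0 h, although with spike-in scaling X06554cds_s_at was highest at 1.0 h. They parted at 1.0 h, where X06554cds_s_at was 1.26-fold higher than at 0.0 h and M22357_g_at 1.48-fold lower. The third probe set, M22357_at, is derived from the same sequence as M22357_g_at and lay below the floor with 26.8, 46.3 and 31.8.

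Pmp22 encodes peripheral myelin protein 22, a membrane protein of compact peripheral myelin whose gene dosage matters in inherited neuropathies. Probe set S55427_s_at gave 5069.2, 4932.1 and 3580.0 and was the brightest myelin reading on every array, at the 81.9th to 85.2nd percentile. Its 1.0 h value was the low one, 1.42-fold below 0.0 h and 1.38-fold below 0.1 h, although with spike-in scaling 0.1 h and 1.0 h were level. The other probe set, rc_AA924909_at, gave 427.7, 499.5 and 536.7, near the middle of each array at the 51.0th to 53.7th percentile, and was 1.26-fold higher at 1.0 h than at 0.0 h. The probe sets of Pmp22 thus differed in direction between 1.0 h and 0.0 h.

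Read from the brightest probe set of each gene, the order by percentile within an array was Pmp22, then Mag and Cnp, then Mobp and Mbp. Pmp22 was at the 81.9th to 85.2nd percentile, Mag at the 63.2nd to 70.0th and Cnp at the 62.6th to 65.0th. The ranges of Mag and Cnp over the 3 arrays overlapped, as did those of Mobp (25.2nd to 31.4th) and Mbp (18.5th to 25.9th). This is an order of probe set brightness, and with Pmp22 read from its dimmer probe set it would stand below Mag and Cnp.

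The first comparison set the 0.1 h array against the 0.0 h array, for readings that differ between these time labels. None of the 5 measured myelin probe sets was at least 2-fold apart, where 10.5% of the 4743 measured probe sets of the array were. Mag was farthest, with log2 differences of 0.69 and 0.50. Of all measured probe sets, 23.0% and 37.3% were at least as far from level. The Pmp22 probe sets, at 0.22 and -0.04, and Cnp at 0.11 were near level, and with spike-in scaling rc_AA924909_at turned to -0.05. The median of the 5 was 0.22, against 0.02 over all measured probe sets, and with spike-in scaling these were -0.05 and -0.26.

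Between 1.0 h and 0.0 h, none of the 5 was at least 2-fold apart either, where 5.47% of 4775 were. Mag M22357_g_at, at -0.57, and Pmp22 S55427_s_at, at -0.50, were the lower ones, while Mag X06554cds_s_at, Pmp22 rc_AA924909_at and Cnp were higher by 0.33, 0.33 and 0.30. The median was 0.30, against 0.02 over all, but with the floor at the 20th percentile, which admits dimmer myelin readings, it was -0.19 against -0.03. Both comparisons use the 0.0 h array, whose own error enters each.

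Between 1.0 h and 0.1 h, 1 of the 5 was at least 2-fold apart, where 9.35% of 4833 were. This was Mag M22357_g_at, 2.10-fold lower at 1.0 h with a log2 difference of -1.07. It was under 2-fold with the values as deposited and with spike-in scaling, and was not measured with the floor at the 60th percentile. Mag X06554cds_s_at was lower by a log2 difference of -0.36 and Pmp22 S55427_s_at by -0.46, and with spike-in scaling these became 0.11 and 0.01. Cnp and Pmp22 rc_AA924909_at were nearly level at 0.18 and 0.10. The median of the 5 was -0.36, against -0.01 over all measured probe sets, and with spike-in scaling these were 0.11 and 0.46.

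**Figure D2:**
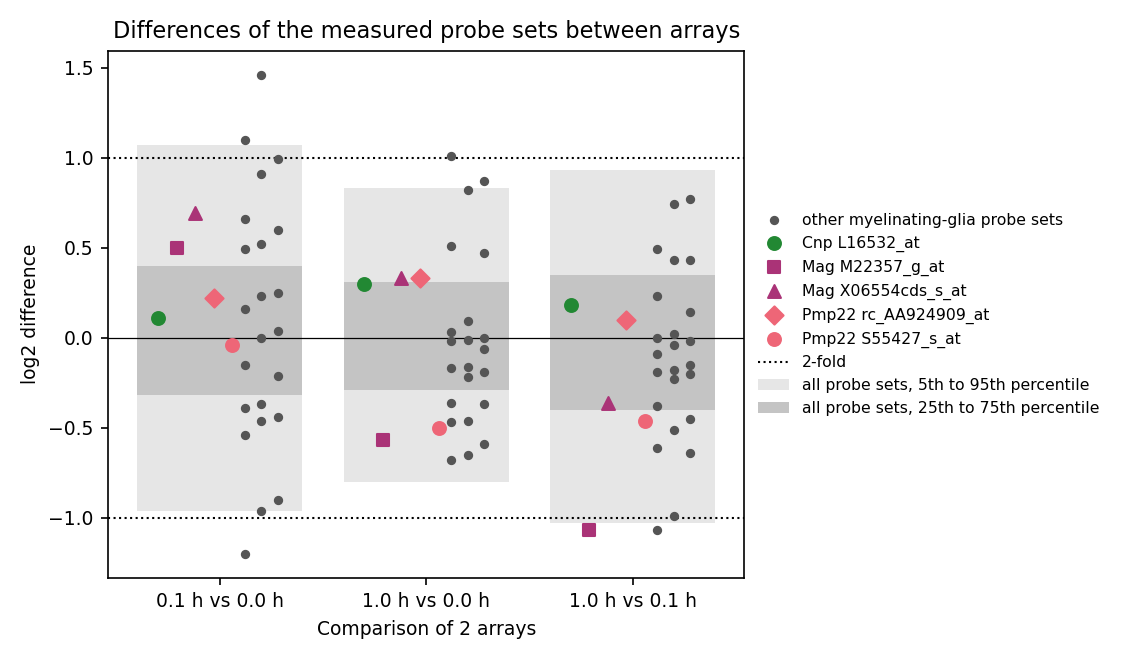
The log2 difference of each measured myelin probe set (coloured markers) and of the other myelinating-glia probe sets (dark points) in the 3 comparisons of 2 arrays, over grey bars for the 5th to 95th and 25th to 75th percentiles of all measured probe sets, with 2-fold dotted. Mag M22357_g_at at 1.0 h against 0.1 h is the only myelin marker beyond 2-fold, at -1.07.

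Probe sets of 1 gene gave a measure of how far a single reading can be trusted on these arrays. Mag and Pmp22 each had a pair of measured probe sets from different sequences. In 3 comparisons this gave 6 pairs of differences, of which 4 were opposite in sign: Pmp22 in every comparison and Mag between 1.0 h and 0.0 h. With spike-in scaling 3 were. The comparisons share the 3 arrays, and the last follows from the others, so the 6 are not separate observations. A sign also means little near level, as for Pmp22 S55427_s_at at -0.04 between 0.1 h and 0.0 h. Over all genes with such pairs, 43.7%, 45.9% and 45.1% of pairs were opposite at 0.1 h against 0.0 h, 1.0 h against 0.0 h and 1.0 h against 0.1 h. The median gap within a pair was 0.49, 0.41 and 0.53 on the log2 scale. The gap was 0.90 for Mag and 0.83 for Pmp22 between 1.0 h and 0.0 h, and 15.1% and 17.4% of all pairs were at least that far apart. These were the widest gaps of the 6. Between 0.1 h and 0.0 h the gaps were 0.19 for Mag and 0.26 for Pmp22, with 79.0% and 71.0% of pairs at least that far apart. Between 1.0 h and 0.1 h they were 0.71 and 0.57, with 33.2% and 46.2%. Apart from the 2-fold lower Mag reading, no difference of a measured myelin probe set exceeded 0.69.

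**Figure D3:**
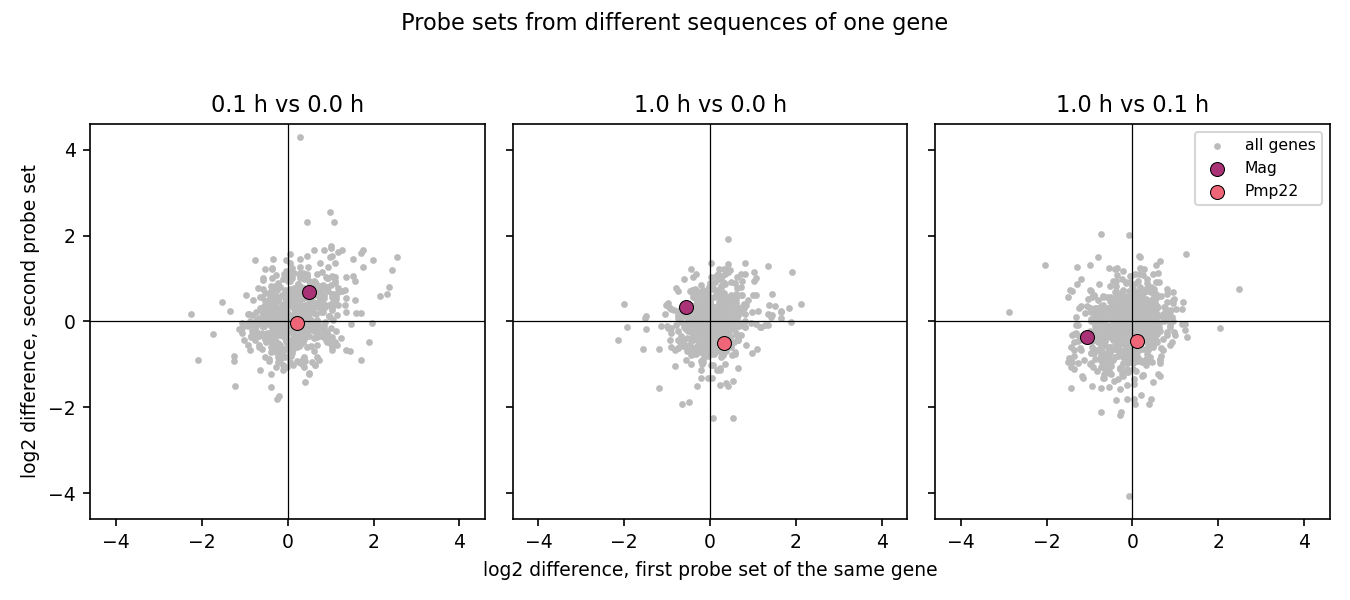
Log2 differences of pairs of probe sets that come from different sequences of the same gene, 1 panel per comparison, with the first probe set on the horizontal and the second on the vertical axis; grey points are all genes, and Mag and Pmp22 are coloured. Points in the upper left and lower right are pairs of opposite sign, where Pmp22 lies in all 3 panels and Mag only at 1.0 h against 0.0 h.

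Cnp and Mag, which both kinds of myelinating glia use, were also set against the peripheral gene Pmp22 within an array, where a common scaling factor cancels. Only the change of such a contrast between arrays is read, since its size depends on the probes. The log2 value of Cnp minus that of Pmp22, from the brightest probe sets, was -2.62, -2.47 and -1.82 at 0.0 h, 0.1 h and 1.0 h, a change of 0.80 between 1.0 h and 0.0 h. With Pmp22 read from its other probe set the change was -0.03. Mag minus Pmp22 was -2.57, -1.83 and -1.73, a change of 0.83, and with second-brightest probe sets the change was -0.90. The contrast that would compare a central-only gene with Pmp22, Mobp minus Pmp22, could not be measured because Mobp was below the floor.

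Other genes of myelinating glia came from lists of oligodendrocyte, Schwann cell, and myelin lipid and node genes. Of 53 such genes, 27 had a probe set named for them alone, and read from the brightest probe set 19 were above the floor on all 3 arrays, 5 on none and 3 on some. Genes of the oligodendrocyte list only were above it on all arrays in 4 of 7 cases, genes of the Schwann cell list only in 10 of 13 and genes of both lists in 3 of 5, against 61.6% of all 4736 genes. These sets include the 5 myelin genes, and no difference between them was tested. A gene in only 1 of the lists may also be made by the other glia or by other cells. Pmp22 is also made by fibroblasts and S100b by astrocytes, and both count among the 10 of the Schwann cell list only.

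**Figure D4:**
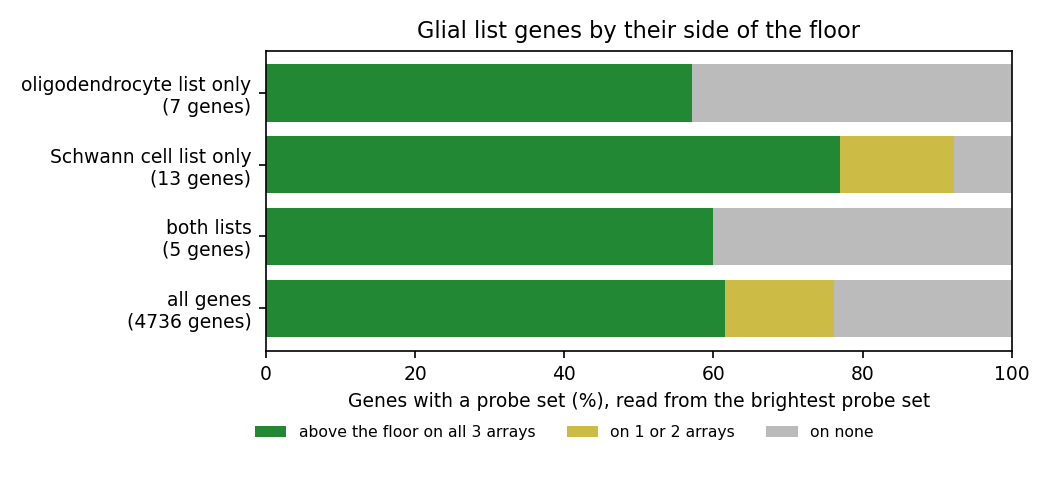
Share of genes (horizontal axis, %) whose brightest probe set was above the floor on all 3 arrays, on 1 or 2, or on none, for genes only in the oligodendrocyte list, only in the Schwann cell list, in both, and for all genes. Above it on all 3 arrays are 4 of 7, 10 of 13 and 3 of 5 genes of the lists and 61.6% of all genes.

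Among genes of the oligodendrocyte list but not the Schwann cell list, Mog, a surface protein of central myelin, was below the floor on both probe sets. Its brighter one gave 119.9, 137.3 and 230.0. Ugt8, which makes the galactolipids of myelin and is also in the myelin lipid and node list, was below the floor with 211.3, 262.1 and 230.6. At 0.1 h it was just under the floor of 262.9. The 4 genes of the oligodendrocyte list alone that were measured were Cspg4, Enpp2, Myrf and Pdgfra, and of these Cspg4 and Pdgfra belong to precursor cells and are also made by pericytes or fibroblasts. Pdgfra was above the floor on all arrays on 1 of its 4 probe sets only. No probe set was named for Olig1 or Olig2 alone.

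Among genes of the Schwann cell list, Prx, the periaxin of Schwann cells, gave 1165.9, 849.7 and 741.3. It was highest at 0.0 h, with a log2 difference of -0.65 at 1.0 h. Gjb1, the connexin of non-compacted myelin, was nearly level with 671.6, 605.0 and 596.1. Ngfr, the low-affinity neurotrophin receptor of Schwann cells that do not form myelin and of sympathetic neurons, gave 3300.6, 3687.7 and 3249.4 on its brighter probe set. Egr2, a transcription factor of myelinating Schwann cells that is also an immediate early gene, gave 3805.2, 7147.6 and 6952.2 and was lowest at 0.0 h. Sox10, the transcription factor of both kinds of myelinating glia, was below the floor with 65.8, 46.9 and 81.2, and Pou3f1 was below it too.

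Between 0.1 h and 0.0 h, 3 of 19 measured genes of these lists were at least 2-fold apart on their brightest probe set, where 10.4% of all 2994 measured genes were, with a median of -0.15 against 0 over all genes. S100b, a calcium-binding protein of Schwann cells and astrocytes, gave 1335.3, 3665.1 and 2356.9 and was 2.74-fold higher at 0.1 h, with its other probe set below the floor. Enpp2, which encodes autotaxin, gave 1548.8, 3319.6 and 1578.2 and was 2.14-fold higher at 0.1 h, a log2 difference of 1.10 that became 0.82 with spike-in scaling. Cntnap1, an axonal protein of the paranode, gave 3966.8, 1723.9 and 2877.9 and was 2.30-fold lower at 0.1 h. Between 1.0 h and 0.0 h none of 19 genes was 2-fold apart on its brightest probe set, where 4.99% of 3029 were, although the dimmer probe set of the adhesion gene Cdh2 was 2.02-fold higher (a log2 difference of 1.01, and 0.91 with quantile normalisation), and the median was -0.17 against 0.01. Between 1.0 h and 0.1 h, Enpp2 was 2.10-fold lower as the only one of 21, where 9.1% of 3043 were 2-fold apart, with a log2 difference of -1.07 that was -0.98 as deposited and -0.60 with spike-in scaling, and the median was -0.09 against 0.

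Other cell types were read the same way. Beside each count below stands the share of all genes above the floor on all arrays, 61.6%. The neuron list and the myelin lipid and node list, with 5 of 8 genes each, were near that share. Of the pinealocyte list, 5 of 6 genes with a probe set were above the floor on all arrays, with a summed scaled intensity of 50689, 57445 and 43896. Of the chromaffin list, 2 of 6 were: Chgb, a granule protein, with 64522.0, 61124.7 and 48335.5, and Pnmt, which makes adrenaline, with 610.7, 657.5 and 514.2. The other 4, among them the catecholamine enzymes Th and Dbh, were below it on every array, and the sums were 65653, 62166 and 49238. All 7 fibroblast genes were above the floor, with sums of 76777, 74520 and 85730, while 5 of 7 astrocyte genes were, with sums of 73862, 78792 and 76292. Gfap had no probe set named for it alone. Of 8 neuron genes 5 were above the floor on all arrays, with sums of 17696, 25939 and 15692. The sums of the Schwann cell list were 54039, 69142 and 53127 and those of the oligodendrocyte list 15766, 15513 and 13789, and the myelin lipid and node list had 5 of 8 genes above the floor on all arrays. The Schwann cell, neuron, astrocyte and pinealocyte sums were highest at 0.1 h, as Mag was. The oligodendrocyte sum, which also includes Mag, was highest at 0.0 h. So were the chromaffin and the myelin lipid and node sums, and the fibroblast sum was highest at 1.0 h. All these sums are given without spike-in scaling, with which Mag X06554cds_s_at was highest at 1.0 h. Such sums rest on a few bright probe sets. Glul alone, with 65091.2 at 0.0 h, made up most of the astrocyte sum. Chgb alone, with 64522.0 at 0.0 h, made up nearly all of the chromaffin sum. The Schwann cell sum includes Mag, and its largest part was Gap43, with 27432.5, 32561.9 and 21318.4, a gene of axons too. Of the measured Schwann cell list genes, Pmp22, Prx, Gjb1, Ncam1, Scn7a and Mal were lower at 0.1 h than at 0.0 h. Gap43, Cdh2, Egr2, S100b, Ngfr, Mag and Cnp were higher. S100b is in both the astrocyte and the Schwann cell list. The median log2 difference between 0.1 h and 0.0 h was 0.11 for the Schwann cell list, 0.54 for the neuron list, 0.10 for the pinealocyte list and -0.04 for the astrocyte list. Their part in the Mag values was not tested.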

How the data were processed

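For each array the authors deposited a linear intensity per probe set. How they summarised probes or subtracted background is not given in the sources used here. Trimmed means of the arrays (2% off each end) were 2503.7, 2503.9 and 2503.7, so the values had been scaled together before deposit. Intensities were taken to log2, the arrays were brought to a common median, the floor was set, and the arrays were shifted to equal medians over probe sets above it on all 3. A difference needed both arrays above the floor and counted from 2-fold. Of the 8799 probe sets, 59 controls were left out of counts.

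The members and lists were chosen with earlier results of these data known. Named were all members, list genes at least 2-fold apart, and a fixed set of glial genes. The counting was tested on simulated data. Alternatives were the deposited scale, quantile, cyclic loess (limma 3.58.1, R 4.3.3) and spike-in scaling, floors at the 20th and 60th percentiles, and other readings of a gene's probe sets. Python 3.11.15 was used.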

Additional observations from a re-analysis of the deposited data

How the results depend on the processing

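Of the 15 differences of measured myelin probe sets, 11 kept their sign under every scaling and floor alternative that measured them, 6 of them under all 6 and 5 under 5, since Mag M22357_g_at and Pmp22 rc_AA924909_at were not measured at the higher floor. The other 4 changed sign with spike-in scaling alone. That scaling moved the median difference of all measured probe sets to -0.26, 0.22 and 0.46 (0.1 h against 0.0 h, 1.0 h against 0.0 h, 1.0 h against 0.1 h) and the 2-fold counts from 294 higher and 206 lower, 138 and 123, and 187 and 265 to 134 and 462, 261 and 63, and 799 and 60. The 1 myelin probe set 2-fold apart between 1.0 h and 0.1 h became 0 on the deposited scale, with spike-in scaling and at the higher floor (60th percentile). The lower floor (20th percentile) admitted dimmer readings: 7, 8 and 8 myelin probe sets were then above it on the 0.0 h, 0.1 h and 1.0 h arrays, and the median between 1.0 h and 0.0 h was -0.19. The higher floor left 3, 4 and 3.

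For probe sets of the other myelinating-glia genes, the numbers at least 2-fold apart were 3 of 23, 1 of 22 and 1 of 24 in these comparisons. At the lower floor they were 6 of 35, 7 of 35 and 6 of 32, and the shares over all probe sets rose as well, from 10.5%, 5.47% and 9.35% to 15.8%, 11.2% and 14.9%. Between 1.0 h and 0.0 h the number was 0 with quantile or cyclic loess normalisation or at the higher floor, and 3 with spike-in scaling, and between 1.0 h and 0.1 h it was 0 as deposited and 2 with spike-in scaling. With second-brightest probe sets the change of Cnp minus Pmp22 was -0.03 between 1.0 h and 0.0 h and 0.08 between 1.0 h and 0.1 h, and that of Mag minus Pmp22 was -0.90 and -1.17. With probe sets averaged, the Mag values were 0.09 and -0.48. The cause of these changes was not tested.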

Other observations

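Erbb3, a neuregulin receptor of Schwann cells, was above the floor at 0.1 h only, on both of its probe sets, with 109.9, 578.5 and 154.6 on one and 149.0, 308.1 and 66.1 on the other. It was picked out after its values had been seen. At 0.1 h these readings stood at 2.2 and 1.17 times the floor. In all, 290 probe sets were above the floor on the 0.1 h array only, and 22 of them at least 2-fold above it. Ncam1 probe sets disagreed: rc_AI137246_s_at was above the floor at 1.0 h only, at 3.48 times the floor, whereas X06564_at gave 1137.8, 586.8 and 997.6. Gap43, a growth-associated protein of axons and Schwann cells, was among the brightest glial-list readings with 27432.5, 32561.9 and 21318.4, and was lowest at 1.0 h.

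Among 674 probe sets of other genes that spanned at least 1 log2 unit over the 3 arrays, the profiles nearest to Mag X06554cds_s_at were those of Tpsb2, Cd44 and Mapk6, with root mean square distances of 0.129, 0.131 and 0.135 on the centred log2 scale. For Pmp22 S55427_s_at, among 675, they were Agxt, Strn and Gclm, at 0.210, 0.211 and 0.223. Mag X06554cds_s_at itself spanned 0.69 log2 units and Pmp22 S55427_s_at 0.50, less than any candidate. Part of each distance therefore follows from the choice of candidates. Probe sets with flatter profiles were left out, so the nearest of all probe sets were not looked for. With 3 arrays such closeness is a description only.

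Across all genes, a 2-fold difference on 1 probe set was seldom matched in size by another probe set of the same gene. Of 141 pairs with at least 1 such difference between 0.1 h and 0.0 h, 105 had the same sign and 19 were both 2-fold in that direction. The counts were 81, 53 and 5 between 1.0 h and 0.0 h, and 124, 78 and 6 between 1.0 h and 0.1 h. The share of pairs with opposite signs changed by less than 1.5 times under the 4 scaling alternatives. The largest change was with spike-in scaling between 1.0 h and 0.1 h, from 338 to 250 opposite pairs. Applying the scaling alternatives to these pairs was decided after seeing the data.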
